A study of Mus musculus with 16 samples.

Results

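The Nduf genes encode nuclear subunits and assembly factors of mitochondrial complex I, and their transcripts were followed here across 4 groups of mouse embryos. A member was every probe set, the group of array probes that reports on a transcript, whose only gene symbol in the platform annotation begins with Nduf. This gave 88 probe sets for 44 genes, out of 45037 probe sets on the array and 18193 genes named by a single symbol. By symbol, 22 probe sets of 9 genes fell to the core families Ndufs and Ndufv. The accessory families Ndufa, Ndufb and Ndufc held 56 probe sets of 27 genes, and the assembly family Ndufaf held 10 probe sets of 8 genes. Families follow the symbol and not the function: Ndufs4, Ndufs5 and Ndufv3 are accessory subunits by function, Ndufa4 is now held to be a subunit of complex IV, and Ndufab1 is the mitochondrial acyl carrier protein.

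Each array measured total RNA of 1 whole female embryo of 11 to 14 somites, taken before the cranial neural tube had closed and freed of its extraembryonic membranes. The groups, of 4 embryos each, were BALB/cCrl embryos homozygous for the gene trap allele Cecr2Gt45Bic, wild type BALB/cCrl embryos, FVB/N embryos homozygous for the same allele, and wild type FVB/N embryos. The allele had been backcrossed onto each strain for over 10 generations. BALB/cCrl mutants came from crosses between heterozygotes, while FVB/N mutants came from crosses between homozygotes, so in FVB/N the genotype of embryo and mother cannot be told apart. The labels give neither litters nor the somite number of single embryos. In RNA of whole embryos, fewer cells of a type and less RNA per cell cannot be told apart.

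Complex I takes electrons from NADH, passes them along a flavin and a chain of iron-sulphur clusters to ubiquinone, and pumps protons across the inner mitochondrial membrane. The conserved core carries out this chemistry, accessory subunits surround it, and assembly factors bind intermediates without being part of the finished enzyme. Embryos at neural tube closure draw much of their energy from glycolysis and build up oxidative phosphorylation as they grow, with the heart rich in mitochondria early.

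Most Nduf transcripts gave a strong signal. Values are on a log2 scale, on which a difference of 1 is a doubling of signal. The highest signal among 13 Y-linked probe sets in these female embryos, 7.28, served as a level below which a probe set was not counted as well above background. It belonged to a Sry probe set, and the highest of any other gene, Zfy2, reached 6.24. Of the 88 members, 77 had a mean above it and 76 exceeded it on every array, against 17453 of all probe sets by their mean. Of the 44 genes, 42 had at least 1 probe set above it on all 16 arrays, and the exceptions were Ndufb4 and Ndufa4l2. All 8 neural tube markers examined were above it on every array. Replicates lay close together: the within-group standard deviation (SD) of members above this level had a median of 0.0756, against 0.0998 for all probe sets above it.

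The targeted gene followed the labels. Cecr2, a bromodomain partner of ISWI chromatin remodellers, had 2 probe sets, and on each the 4 mutants of a strain lay below its 4 wild types. On 1457039_at it averaged 5.95 in BALB/cCrl mutants and 8.31 in BALB/cCrl wild types. In FVB/N the averages were 6.24 in mutants and 8.24 in wild types. All mutants were below the Y-linked level and all wild types above it on both probe sets, so no fold is given, and all 4 differences passed the test with adjusted p of 6.8e-05 or less in limma. Over all probe sets, the correlation between embryos of the same group was 0.995 to 0.998.

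The first comparison asked what loss of Cecr2 did to Nduf transcripts in BALB/cCrl. No probe set of the 88 passed the test, limma's moderated test with Benjamini-Hochberg adjustment over all 45037 probe sets and an adjusted p under 0.05. Over the whole array 0.02% of probe sets passed. An unadjusted p under 0.05 was reached by 6 members, or 6.82%, against 9.54% of all probe sets. The median difference of the members, mutant minus wild type, was -0.031 on the log2 scale, against 0.005 for all probe sets and -0.017 for those above the Y-linked level. Leaving out 1 array at a time moved it between -0.046 without BALB/cCrl wild type 3 and -0.013 without BALB/cCrl wild type 1. Of the 88 members 52 lay below 0, or 59.1%, against 57.3% of probe sets above that level. Groups that did not overlap were seen for 7 members, or 7.95%, against 5.12% of all probe sets.

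Assembly factors lay lowest of the 3 families in BALB/cCrl mutants. All 10 Ndufaf probe sets had a mean below that of wild types, with a median difference of -0.10 (log2), yet none passed the test. Ndufaf8, the partner of the arginine hydroxylase Ndufaf5, read 8.55, 8.68, 8.68 and 8.78 in mutants, against 8.87, 8.85, 8.84 and 8.88 in wild types on probe set 1448003_at. Every mutant was below every wild type there, with a difference of -0.19 ± 0.0612 (standard error, SE) and an adjusted p of 0.38 in limma. Its other probe set, 1457826_a_at, gave a difference of -0.04 with overlapping groups. Ndufaf5 read 8.58, 8.53, 8.50 and 8.51 in mutants, against 8.71, 8.70, 8.61 and 8.65 in wild types. These groups did not overlap either, and the adjusted p in limma was 0.50 for a difference of -0.14. The groups overlapped on every probe set of Ndufaf1, Ndufaf2, Ndufaf3, Ndufaf4, Ndufaf6 and Ndufaf7.

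Core and accessory families showed smaller shifts in BALB/cCrl mutants. The 22 core probe sets had a median difference of -0.02 with 11 above 0 and 11 below, while the 56 accessory probe sets had a median of -0.01. The largest core difference above background belonged to Ndufv1, the subunit that binds NADH, at 0.15 on probe set 1415966_a_at with overlapping groups and an adjusted p in limma of 0.64. Among accessory genes, Ndufab1 had the lowest value, -0.16 on 1428160_at, with an adjusted p in limma of 0.72. The highest accessory value came from an Ndufa3 probe set that was not well above background on any array, so no fold is given.

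In FVB/N, a single member passed the test. Over all probe sets 0.595% passed, with 0.175% higher in mutants. Ndufa4, held to be a subunit of cytochrome c oxidase, read 12.11, 12.13, 11.97 and 12.30 in mutants, against 11.72, 11.71, 11.87 and 11.89 in wild types. All 4 mutants exceeded all 4 wild types, as was so for 2 further members, Ndufa3 on 1452790_x_at and Ndufa12 on 1418814_s_at, at 0.10 and 0.16 without passing. The 3 members whose groups did not overlap were 3.41%, against 6.83% of all probe sets. Ndufa4 averaged 12.13 ± 0.134 in mutants and 11.80 ± 0.0946 in wild types (SD, n = 4 each), a 1.26-fold rise of 0.33 ± 0.0633 (log2, SE) with an adjusted p of 0.022 in limma.

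The Ndufa4 rise in FVB/N rested on few arrays. Its adjusted p in limma was 0.06 without FVB/N mutant 4, 0.054 without FVB/N wild type 1 and 0.099 without FVB/N wild type 2, with differences of 0.27 to 0.30. Over all alternatives the difference ran between 0.27 and 0.39, and the call was lost in 6 of 26. In BALB/cCrl the same probe set read 11.79, 11.91, 11.93 and 11.77 in mutants, against 11.87, 11.97, 11.77 and 11.85 in wild types, and these values overlapped. The difference between the strains' genotype effects, BALB/cCrl minus FVB/N, was -0.35 ± 0.0895 (SE), with an adjusted p in limma of 0.19.

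Ndufa4 lies on chromosome 6, as does Cecr2, 108.76 Mb away on build GRCm38.p6. The other Nduf genes of that chromosome were Ndufa5, Ndufb2 and Ndufa9, at 96.14, 81.07 and 6.05 Mb from Cecr2. None of them passed the test for genotype in either strain. Ndufa9, a subunit at the join of the membrane and matrix arms and the nearest to the trapped gene, differed by -0.05 in BALB/cCrl mutants and 0.01 in FVB/N mutants. Ndufb2, a membrane arm subunit, differed by -0.05 to 0.03 in BALB/cCrl mutants and by 0.07 to 0.10 in FVB/N mutants over its 3 probe sets. Ndufa4l2, the hypoxia-inducible paralogue of Ndufa4, lies on chromosome 10 and took the opposite direction in FVB/N, with 7.22, 7.42, 7.63 and 7.38 in mutants, against 7.63, 7.80, 7.58 and 7.69 in wild types. Its groups overlapped, and its difference of -0.26 ± 0.093 (SE) had an adjusted p of 0.24 in limma.

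**Figure D1:**
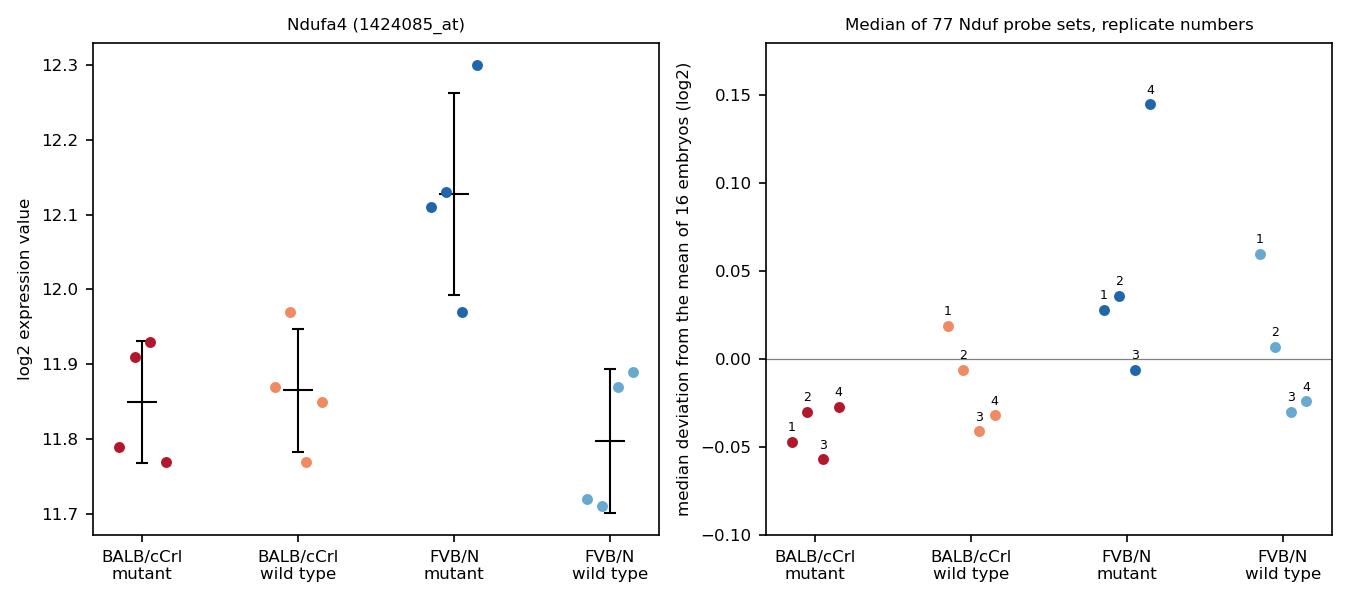
Left, log2 expression values of Ndufa4 in each of the 16 embryos by group, with bars for mean ± SD. Right, the median deviation of the 77 Nduf probe sets above the Y-linked level from their mean over 16 embryos, with replicate numbers above the points: FVB/N mutant 4 stands highest at 0.145.

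Most other Nduf members had a slightly higher mean in FVB/N mutants, by an amount that shrank or grew with the embryo left out. Of the 88 probe sets 72 had a higher mean in mutants than in wild types, with a median difference of 0.04, against 0.01 for all probe sets and -0.015 for those above the Y-linked level. An unadjusted p under 0.05 was reached by 13 members, or 14.8%, against 12.1% of all probe sets. By family, 20 of 22 core, 44 of 56 accessory and 8 of 10 assembly probe sets were above 0. In single embryos, the median deviation of the 77 members above the Y-linked level was 0.028, 0.036, -0.006 and 0.145 in FVB/N mutants 1 to 4, against 0.060, 0.007, -0.03 and -0.024 in wild types 1 to 4. FVB/N mutant 4 thus stood above all other embryos and the remaining FVB/N mutants overlapped the wild types. It was the highest of its group in 57 of the 77 probe sets, or 74.0%, while over all probe sets above that level it was the highest in 28.3%. Without it the median difference was 0.02 and 55 of 88 probe sets were above 0.

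FVB/N wild type 1 took the same place among the wild types, highest of its group in 53 of 77 probe sets, or 68.8%, against 30.9% of all probe sets above the level. In BALB/cCrl the embryos stayed closer together, with medians of -0.047, -0.03, -0.057 and -0.027 in mutants, against 0.019, -0.006, -0.041 and -0.032 in wild types. FVB/N mutant 4 was also the highest FVB/N mutant for complexes III, IV and V, with medians of 0.109, 0.073 and 0.074. For complex II it had 0.095, below the 0.102 of FVB/N mutant 2, and it had -0.004 for complex I factors outside the Nduf family and -0.025 for biogenesis factors. Heart muscle markers were also higher in FVB/N mutants: 12 of 12 were above 0, with a median difference of 0.22 and none past the test. In BALB/cCrl 0 of 12 were above 0, with a median of -0.079 and none past the test. The summed signal of the heart markers (log2) was 15.16 to 15.25 in FVB/N mutants and 14.76 to 15.22 in FVB/N wild types. FVB/N mutants 1 and 4 had heart sums of 15.24 and 15.25, with Nduf medians of 0.028 and 0.145. Ryr2 was below the Y-linked level on all arrays. In FVB/N mutants against wild types 1 of 8 neural tube markers was above 0, with a median of -0.16 and none past the test. Their summed signal was 12.69 to 13.06 in mutants, lowest in mutant 4, and 12.97 to 13.10 in wild types. Somite markers had 1 of 8 above 0 with a median of -0.35, and visceral endoderm and yolk sac markers had 0 of 8 above 0 with a median of -0.40, again with none past the test. The yolk sac sum was 12.75 in FVB/N mutant 3, 14.59 to 15.03 in the other FVB/N mutants and 14.32 to 15.11 in FVB/N wild types. The part of these tissues in the Nduf values was not tested.

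The next comparisons set the strains against each other, in mutants and in wild types. Here the Nduf genes differed more: 23 of 88 probe sets passed the test between mutants (26.1%, against 10.8% of all probe sets) and 13 between wild types (14.8%, against 6.74%). Strongly expressed probe sets passed more often in general. Among those above the Y-linked level the shares were 28.6% of members and 18.5% of all probe sets between mutants, and 15.6% and 10.1% between wild types. Between mutants, 18 of the 23 were lower in BALB/cCrl and 5 higher. Of the 4861 calls over all probe sets, 2660 were lower (5.91% of 45037) and 2201 higher (4.89%). Between wild types, 12 of the 13 were higher in BALB/cCrl and 1 lower. Of the 3036 calls over all probe sets there, 1296 were higher (2.88% of 45037) and 1740 lower (3.86%). The median difference, BALB/cCrl minus FVB/N, was -0.084 between mutants, against 0 for all probe sets and -0.024 for those above the Y-linked level. Between wild types it was -0.028, close to the -0.022 of probe sets above that level (0.007 for all probe sets), and it ran between -0.044 without BALB/cCrl wild type 1 and -0.01 without FVB/N wild type 1. Groups that did not overlap were seen for 32 members between mutants, or 36.4%, against 13.2% of all probe sets, and for 22 between wild types, or 25%, against 15%. The plot of differences by family shows how few members left the band near 0.

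**Figure D2:**
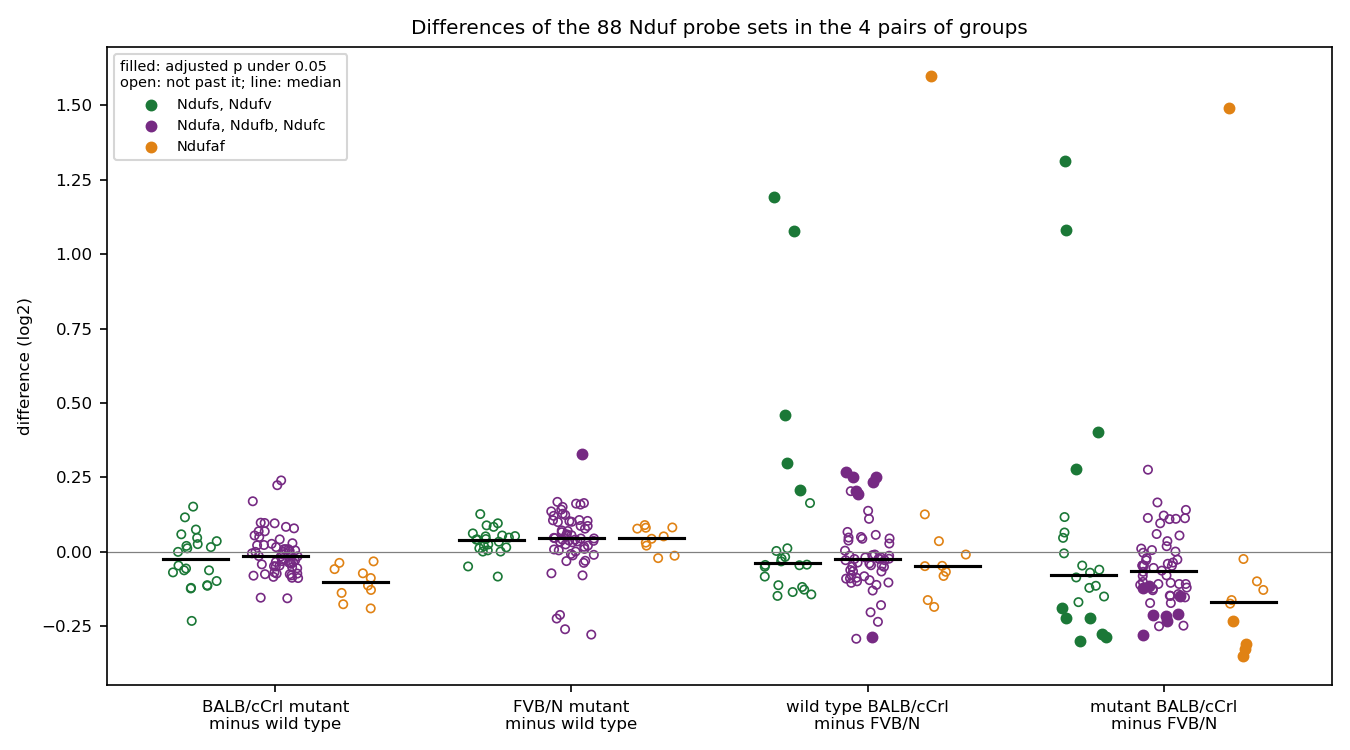
Differences (log2) of the 88 Nduf probe sets in the 4 pairs of groups, by family; filled points passed the test (adjusted p under 0.05) and black lines are medians. The 3 points above 1 in each strain comparison are Ndufaf1, Ndufs5 and Ndufv1, and the 10 Ndufaf points of BALB/cCrl mutants minus wild types all lie below 0.

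Markers of other tissues also differed between the strains, where 10.8% of all probe sets passed between mutants and 6.74% between wild types. Primitive erythroid markers passed on 4 of 6 probe sets between mutants, with a median difference of 0.40 and summed signals of 16 to 16.17 in BALB/cCrl mutants and 15.46 to 15.92 in FVB/N mutants. Between wild types 0 of 6 passed, with a median of 0.21. Heart muscle markers passed on 4 of 12 between wild types, with a median of 0.28 and summed signals of 15.01 to 15.33 in BALB/cCrl wild types and 14.76 to 15.22 in FVB/N wild types. Between mutants 2 of 12 passed, with a median of -0.019. Somite markers passed on 2 of 8 between wild types with a median of -0.36, and on 1 between mutants with a median of 0.07. Neural tube markers passed on 2 of 8 between mutants with a median of 0.20, and on 1 between wild types with a median of 0.046. The part of these tissues in the Nduf differences was not tested. Trophoblast and decidua markers were high in BALB/cCrl mutant 4 and BALB/cCrl wild type 1, with sums of 9.56 and 9.11, although Tpbpa, Gzme, Gzmg and Prl3c1 stayed below the Y-linked level on all arrays. Without these embryos 20 Nduf probe sets (22.7%) passed between mutants, against 10.2% of all probe sets. Between wild types 13 (14.8%) passed, against 5.79%.

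A trio of genes stood far above the rest: the assembly factor Ndufaf1 and the subunits Ndufs5 and Ndufv1, each on 1 probe set, were more than doubled in BALB/cCrl. No other member differed by as much as 0.5 (log2). The RefSeq promoters of these genes, 300 bases around the start of each gene on build GRCm38.p6, are printed so that the genes behind the largest differences can be looked up; capitals mark a match to a motif of the transcription factors NRF1 or ETS, and Ndufv1 has neither.
Ndufaf1 promoter, chr2:119662785-119663084, minus strand: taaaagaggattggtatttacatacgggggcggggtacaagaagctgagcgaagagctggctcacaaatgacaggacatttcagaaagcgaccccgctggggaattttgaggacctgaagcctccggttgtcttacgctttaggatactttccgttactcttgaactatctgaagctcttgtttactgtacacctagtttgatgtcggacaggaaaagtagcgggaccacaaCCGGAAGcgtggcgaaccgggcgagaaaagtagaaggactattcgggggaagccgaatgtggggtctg
Ndufs5 promoter, chr4:123718137-123718436, minus strand: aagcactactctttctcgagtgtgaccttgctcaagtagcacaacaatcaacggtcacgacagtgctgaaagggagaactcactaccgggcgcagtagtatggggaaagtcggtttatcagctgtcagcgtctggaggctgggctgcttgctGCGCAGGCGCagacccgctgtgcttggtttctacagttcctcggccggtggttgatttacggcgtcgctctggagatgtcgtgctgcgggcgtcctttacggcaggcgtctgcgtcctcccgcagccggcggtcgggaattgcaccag
Ndufv1 promoter, chr19:4012706-4013005, minus strand: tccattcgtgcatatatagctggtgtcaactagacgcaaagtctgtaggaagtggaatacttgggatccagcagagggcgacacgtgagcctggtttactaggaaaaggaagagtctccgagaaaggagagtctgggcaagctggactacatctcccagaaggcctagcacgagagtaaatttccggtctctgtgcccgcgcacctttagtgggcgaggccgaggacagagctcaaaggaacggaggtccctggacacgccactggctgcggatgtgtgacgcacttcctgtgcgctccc

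Ndufaf1 had the largest difference of all Nduf members in both genotypes. It encodes a factor that works with Ecsit and Acad9 on the membrane arm of complex I, and it lies on chromosome 2. Its only probe set read 9.62, 9.55, 9.63 and 9.58 in BALB/cCrl mutants, against 8.25, 8.08, 8.08 and 8.0 in FVB/N mutants. Wild types repeated the gap, with 9.67, 9.76, 9.60 and 9.71 in BALB/cCrl, against 8.09, 8.01, 8.12 and 8.11 in FVB/N. No value of a strain came near those of the other. The difference was 1.49 ± 0.061 (SE) between mutants, 2.81-fold, and 1.60 ± 0.061 between wild types, 3.03-fold, with adjusted p of 1.3e-12 and 3.8e-13 in limma. Between mutants and wild types Ndufaf1 differed by -0.09 in BALB/cCrl and 0.02 in FVB/N, with overlapping groups and without passing the test.

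Among the core families, Ndufs5 and Ndufv1 differed most. Ndufs5, an accessory subunit on the intermembrane side of the enzyme encoded on chromosome 4, read 9.83, 9.79, 9.89 and 9.78 in BALB/cCrl mutants, against 8.78, 8.74, 8.55 and 8.90 in FVB/N mutants on 1416494_at. In wild types it read 9.83, 9.87, 9.71 and 9.82 in BALB/cCrl, against 8.65, 8.56, 8.65 and 8.59 in FVB/N. The strains were apart by 1.08 ± 0.0663 (SE) between mutants, 2.12-fold, and by 1.19 ± 0.0663 between wild types, 2.29-fold, with adjusted p of 5.7e-10 and 1.3e-10 in limma. A further probe set, 1416495_s_at, is annotated to Ndufs5 and the pseudogene Ndufs5-ps and so is no member. It showed no such gap, with 11.74 to 11.77 in BALB/cCrl mutants, 11.70 to 11.96 in FVB/N mutants, 11.74 to 11.81 in BALB/cCrl wild types and 11.77 to 11.83 in FVB/N wild types. Its strain differences were -0.06 and -0.03, with adjusted p of 0.45 and 0.82 in limma.

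Ndufv1, on chromosome 19, carries the flavin that accepts electrons from NADH. On 1415966_a_at it read 11.40, 11.39, 11.44 and 11.43 in BALB/cCrl mutants, against 10.11, 10.16, 9.95 and 10.18 in FVB/N mutants. In wild types it read 11.43, 11.58, 10.96 and 11.07 in BALB/cCrl, against 10.22, 10.18, 10.16 and 10.18 in FVB/N. The BALB/cCrl wild types fell into a higher and a lower pair, and both pairs exceeded every FVB/N embryo. The difference was 1.31 ± 0.0948 (SE) between mutants, 2.49-fold, and 1.08 ± 0.0948 between wild types, 2.11-fold, with adjusted p of 7.2e-09 and 1.3e-07 in limma. The gene's other probe sets did not share it. On 1415967_at the strain differences were -0.05 and -0.03, and on 1456015_x_at they were 0.06 between mutants and 0.21 between wild types, the last with an adjusted p of 0.026 in limma. That call was lost without BALB/cCrl wild type 2 (0.17, adjusted p 0.10), FVB/N wild type 3 (adjusted p 0.077) or FVB/N wild type 4 (adjusted p 0.095).

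**Figure D3:**
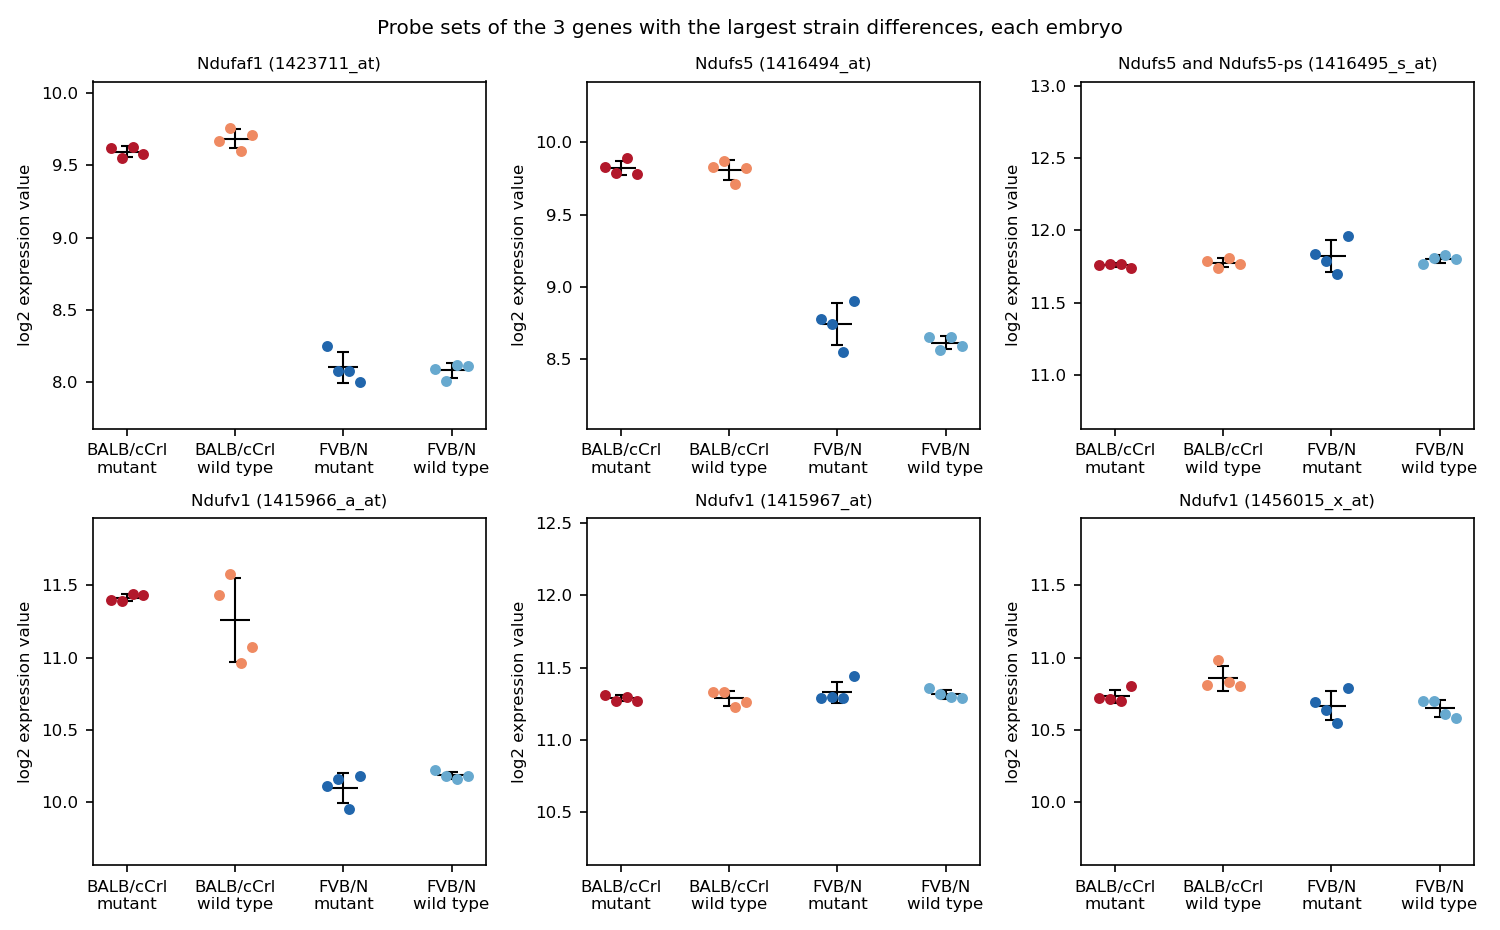
Log2 expression values in each of the 16 embryos by group, with bars for mean ± SD, on the single probe set of Ndufaf1, on 2 probe sets that report on Ndufs5 and on the 3 of Ndufv1. Ndufaf1, Ndufs5 on 1416494_at and Ndufv1 on 1415966_a_at separate the strains, while the other panels do not show a gap of that size.

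Sequences of the array's probes and of the strains' genomes were not used here, so whether each probe set reads the transcript of both strains equally well was not tested. The disagreement between probe sets of Ndufv1, and between those that report on Ndufs5, stands as measured. Ndufaf1 has a single probe set and no such comparison.

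Ndufv3, a small accessory subunit of the NADH-oxidising module, was the next core family member higher in BALB/cCrl. It read 11.71, 11.76, 11.78 and 11.67 in BALB/cCrl mutants, against 11.33, 11.24, 11.19 and 11.56 in FVB/N mutants, and 11.57, 11.74, 11.54 and 11.62 in BALB/cCrl wild types, against 11.22, 11.35, 11.38 and 11.32 in FVB/N wild types. Neither pair of groups overlapped. The rise was 1.32-fold between mutants and 1.23-fold between wild types, with adjusted p of 2.6e-04 and 0.0055 in limma, and it passed the test in every alternative tried.

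Ndufs8 was the core gene lowest in BALB/cCrl mutants relative to FVB/N mutants. It carries iron-sulphur clusters near the ubiquinone site and lies on chromosome 19, 0.095 Mb from Ndufv1 with 8 protein-coding genes between. On 1423907_a_at it read 11.90, 11.88, 11.92 and 11.98 in BALB/cCrl mutants, against 12.18, 12.17, 12.09 and 12.35 in FVB/N mutants, which did not overlap. Of its 6 probe sets, 4 passed the test, with differences of -0.22 to -0.30 and adjusted p of 6.8e-04 to 0.0021 in limma. The other two gave -0.005 and -0.15. Between wild types none of the 6 passed, and 5 of them lay below 0, between -0.11 and -0.14.

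Ndufv2 and Ndufs4 each had 1 probe set above background that passed the test between mutants, lower in BALB/cCrl. For Ndufv2, an iron-sulphur partner of Ndufv1, it was 1452692_a_at, at -0.19 with an adjusted p of 0.033 in limma, while the remaining pair of probe sets gave -0.07 and -0.12 without passing. The call was lost on leaving out BALB/cCrl mutant 1 or 3 or FVB/N mutant 1 or 2, with the largest adjusted p, 0.14, without BALB/cCrl mutant 1. For Ndufs4, an accessory subunit whose loss models Leigh syndrome in mice, it was 1438166_x_at, at -0.29 with an adjusted p of 0.011. Its other probe sets above background gave 0.12 and -0.11. An Ndufs4 probe set that was below the Y-linked level on all 16 arrays, 1459760_at, went the other way. It passed the test in both genotypes, higher in BALB/cCrl, and is given no fold.

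Among accessory genes the wild types differed in Ndufa7, Ndufa3 and Ndufb8. Ndufa7, a subunit of the matrix arm on chromosome 17, passed the test on 4 of 5 probe sets, 0.24 to 0.27 higher in BALB/cCrl wild types with adjusted p of 0.0021 to 0.018 in limma. On 1436567_a_at it read 12.52, 12.53, 12.39 and 12.49 in BALB/cCrl wild types, against 12.32, 12.21, 12.22 and 12.19 in FVB/N wild types, and the groups did not overlap. Between mutants these 4 probe sets gave 0.04 to 0.14 and none passed, with groups that overlapped. Leaving out FVB/N wild type 1 or BALB/cCrl wild type 2 ended the wild type call on 1422976_x_at (adjusted p 0.055 and 0.056) and on none of the other three.

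Ndufa3, a small membrane arm subunit, was 0.20 and 0.21 higher in BALB/cCrl wild types on its 2 probe sets above background, with adjusted p of 0.026 and 0.0085 in limma, and 0.11 higher on both between mutants without passing. The first of these wild type calls, on 1428464_at, was lost on leaving out any of BALB/cCrl wild types 1 and 2 and FVB/N wild types 2, 3 and 4, with adjusted p of 0.058 to 0.096. Ndufb8, a membrane arm subunit on chromosome 19, was lower in BALB/cCrl in both genotypes. It read 12.41, 12.40, 12.34 and 12.43 in BALB/cCrl mutants, against 12.67, 12.57, 12.69 and 12.57 in FVB/N mutants. In wild types it read 12.51, 12.45, 12.34 and 12.39 in BALB/cCrl, against 12.76, 12.72, 12.68 and 12.68 in FVB/N. The strains did not overlap in either genotype, and the differences were -0.23 and -0.29, with adjusted p of 6.7e-04 and 8e-05 in limma.

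A broader set of accessory genes was lower in BALB/cCrl mutants than in FVB/N mutants. Besides Ndufb8 these were Ndufa4, Ndufa5, Ndufa8, Ndufb6 and Ndufc2, so that all 8 accessory probe sets that passed between mutants were lower. Ndufa5, a matrix arm subunit, was lower on both of its probe sets, at -0.21 and -0.22 with adjusted p of 0.020 and 0.0033 in limma. On 1417286_at it read 10.68, 10.77, 10.70 and 10.75 in BALB/cCrl mutants, against 10.92, 10.96, 10.89 and 11.00 in FVB/N mutants. Ndufa4 was lower by 0.28 in log2 units, with an adjusted p of 0.0058, and Ndufc2, of the membrane arm, was at -0.21 on 1416366_at (adjusted p 0.0022) and -0.11 on 1455036_s_at (adjusted p 0.047). Ndufa8, on the intermembrane side, and Ndufb6, of the membrane arm, were at -0.15 and -0.12, with adjusted p of 0.025 and 0.039.

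Several of these small differences depended on single arrays. Leaving out 1 of the 16 arrays ended the call for Ndufa8 in 4 cases (BALB/cCrl mutants 1 and 3, FVB/N mutants 1 and 4, adjusted p 0.053 to 0.089). For Ndufa5 on 1417285_a_at it did so in 4 cases (BALB/cCrl mutants 1 and 3, FVB/N mutants 2 and 4, adjusted p 0.060 to 0.079). Ndufb6 lost it in 6 cases, with adjusted p of up to 0.12, and Ndufc2 on 1455036_s_at in 11, with adjusted p of up to 0.14. The call of Ndufa4 between mutants and those of Ndufa5 on 1417286_at and Ndufc2 on 1416366_at passed in every alternative tried.

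Assembly factors other than Ndufaf1 were also lower in BALB/cCrl mutants. Ndufaf4, which with Ndufaf3 builds the ubiquinone module, passed on both probe sets, at -0.33 and -0.35 with adjusted p of 0.0020 and 0.0010 in limma. On 1435333_at it read 9.85, 9.88, 9.91 and 10.11 in BALB/cCrl mutants, against 10.35, 10.28, 10.26 and 10.27 in FVB/N mutants, and every BALB/cCrl mutant was below every FVB/N mutant. Ndufaf5, which hydroxylates Ndufs7, was at -0.31 with an adjusted p of 0.0022 and read 8.58, 8.53, 8.50 and 8.51 in BALB/cCrl mutants, against 8.79, 8.85, 8.76 and 8.95 in FVB/N mutants. Ndufaf8 was at -0.23 on 1448003_at, with an adjusted p of 0.016. It lost the call without BALB/cCrl mutant 1 (-0.19, adjusted p 0.072) or FVB/N mutant 1 (-0.21, adjusted p 0.052). Ndufaf6 and Ndufaf2 were at -0.17 and -0.16 and did not pass, with adjusted p of 0.081 and 0.068.

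**Figure D4:**
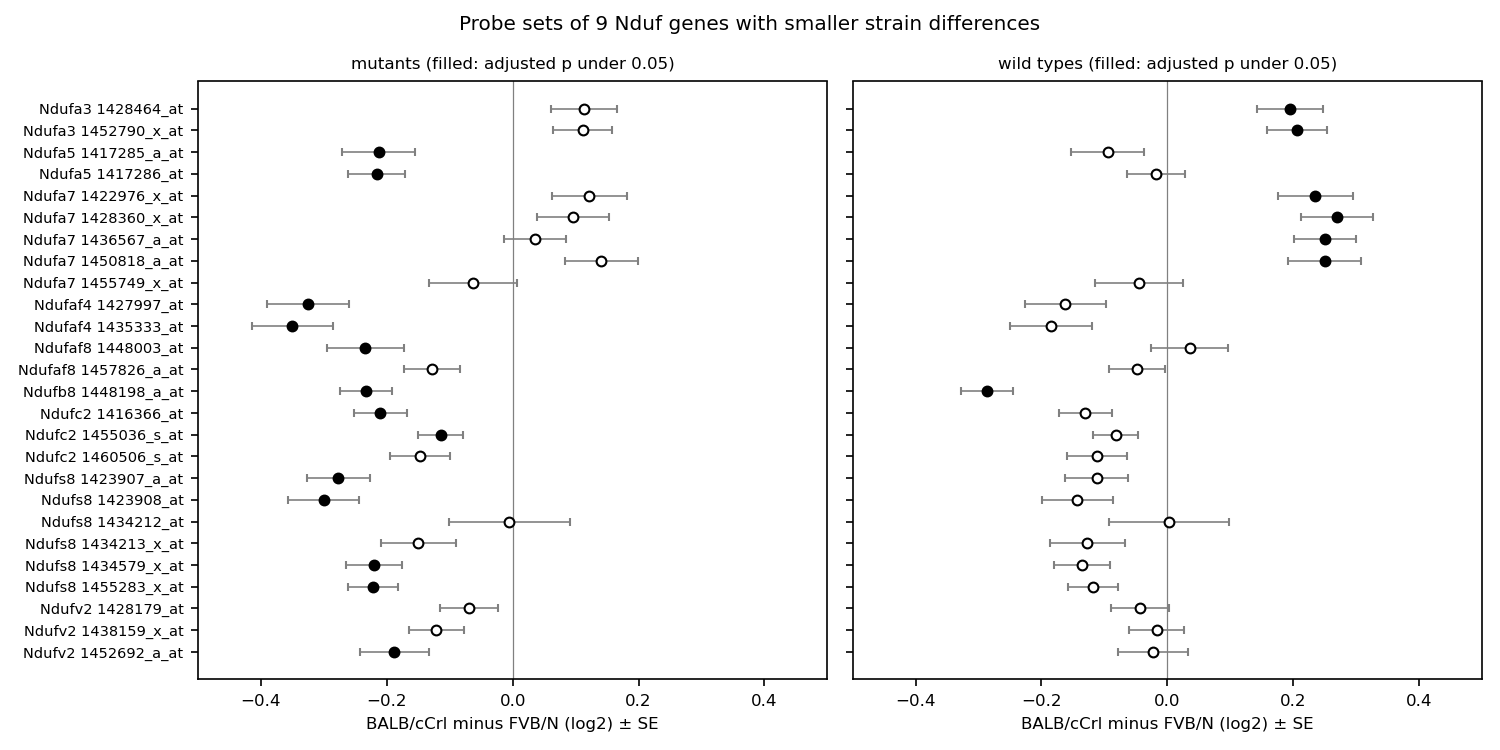
Strain differences (BALB/cCrl minus FVB/N, log2, ± SE) of every probe set above the Y-linked level for 9 Nduf genes, in mutants on the left and in wild types on the right; filled points passed the test. The probe sets of Ndufaf4 and Ndufa5 are filled in mutants and open in wild types, those of Ndufa3 the reverse, and Ndufb8 is filled in both.

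The strain differences of the 2 genotypes come from separate embryos, deposited in a single table. Of the 23 members that passed between mutants and the 13 between wild types, 6 passed in both, all in the same direction. That was 26.1% of the mutant calls and 46.2% of the wild type calls, against 42.1% and 67.5% over all probe sets. All 13 wild type calls had the same sign between mutants, and 21 of the 23 mutant calls had the same sign between wild types. In all, 18 of the 44 genes, or 40.9%, passed on some probe set in at least 1 of the 2 comparisons. Of the 18193 genes named by a single symbol, 19.9% did. That background was not matched for signal or for probe sets per gene, and 22 of the 44 Nduf genes had more than 1.

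Whether the strain difference itself changed with genotype was tested by the interaction, and no Nduf probe set passed it (0.0755% of all probe sets did). An unadjusted p under 0.05 was reached by 9 members, or 10.2%, against 7.92% of all probe sets. Of the 88 interaction values 70 lay below 0, with a median of -0.08 against -0.007 for all probe sets, and all 10 assembly probe sets were among them. Without FVB/N mutant 4 that median was -0.047. Largest was Ndufa4, given above, followed among assembly factors by Ndufaf8 on 1448003_at at -0.27 (adjusted p 0.36 in limma). The mean of both genotype effects also gave no call among members, against 0.455% of all probe sets, with a median of 0.015. Here 11 members had an unadjusted p under 0.05, or 12.5%, against 13.7% of all probe sets.

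**Figure D5:**
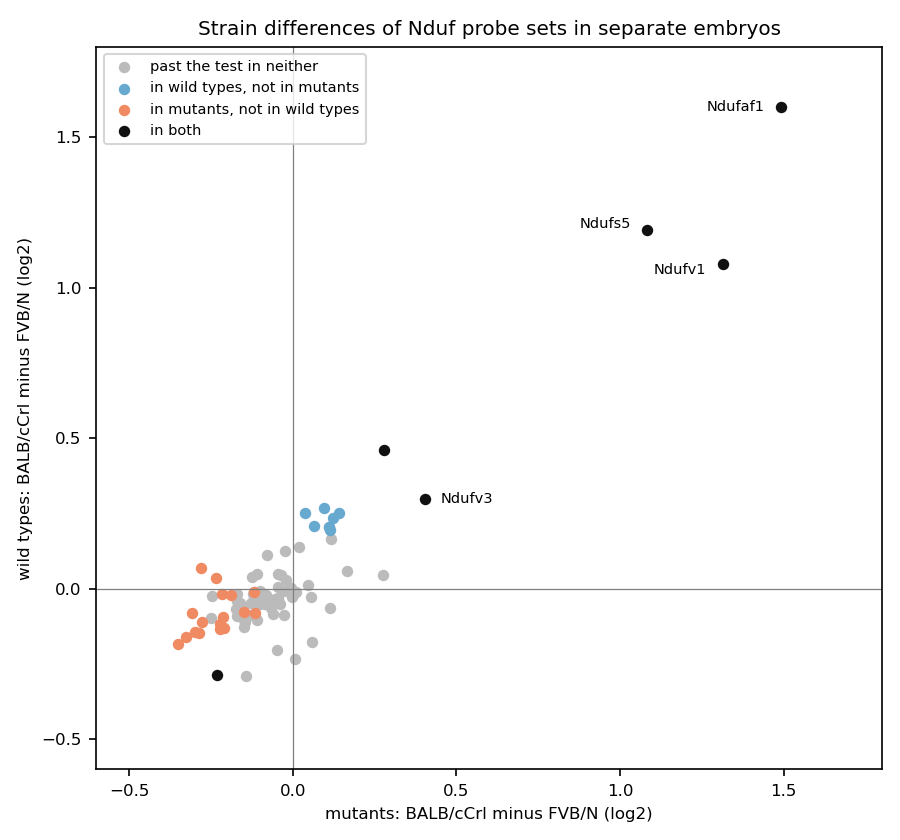
Strain differences (BALB/cCrl minus FVB/N, log2) of the 88 Nduf probe sets in mutants on the x axis and in wild types on the y axis, coloured by where they passed the test. Ndufaf1, Ndufs5 and Ndufv1 lie at 1.08 or more on both axes, and the other members within 0.5 of 0.

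Genes with several probe sets allowed a check of one against another. Of 20 genes with more than 1 probe set above the Y-linked level on all arrays, 14 had the same sign on all of them in the strain difference between mutants, and 13 of these were below 0. Between mutants, all probe sets passed for 2 genes, some for 7 and none for 11. Between wild types, all passed for 1 gene, some for 2 and none for 17, and the spread between a gene's probe sets was under 0.2 for 16 of the 20. The same counts were not made over all genes with several probe sets, so they describe these genes only. Of all probe sets above the Y-linked level, 18.5% passed between mutants and 10.1% between wild types, and 56.7% lay below 0 between mutants.

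The remaining core genes of the family, Ndufs1, Ndufs3 and Ndufs7, passed in no comparison; they are named here to complete the family, after their values had been seen. Ndufs1, the largest iron-sulphur subunit, differed by -0.06 between strains in mutants and -0.08 in wild types. Ndufs3 differed by 0.05 and 0.01. Ndufs7, an iron-sulphur subunit at the ubiquinone site, differed by -0.17 and -0.09 between mutants on its 2 probe sets, and by -0.04 and -0.05 between wild types.

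Other parts of the respiratory chain were set beside the Nduf genes, over lists of textbook members. Between mutants, 4 of 15 complex II, 4 of 21 complex III, 11 of 44 complex IV and 6 of 35 complex V probe sets passed. These are 26.7%, 19.0%, 25% and 17.1%, against 26.1% of Nduf probe sets. Over the whole array 10.8% passed, and 18.5% of the probe sets above the Y-linked level. All calls of complexes II, III and V were lower in BALB/cCrl mutants, and complex IV split into 5 higher and 6 lower. Median differences were -0.07, -0.09, -0.02 and -0.06. Between wild types none passed in complexes II and III, 10 in complex IV (7 higher, 3 lower) and 3 in complex V, all lower. The last 2 counts were 22.7% and 8.57%, against 6.74% of all probe sets and 10.1% of those above the Y-linked level. Cox5b, a subunit of complex IV, was 0.25 to 0.37 higher in BALB/cCrl wild types on its 4 probe sets above the Y-linked level, and a further Cox5b probe set that passed was not well above background. Factors of complex I outside the Nduf family are mostly known from its assembly, Acad9, Ecsit and Tmem126a among them. They passed on 5 of 20 probe sets, or 25%, between mutants (2 higher, 3 lower) and on 3, or 15%, between wild types. The mutant calls fell to 3 genes, and the higher ones were all of Acad9, whose probe sets disagreed. On its probe sets above the Y-linked level the differences that passed were 0.81 and -0.54 between mutants. Between wild types they were 0.71 and -0.62. A further Acad9 probe set that passed between mutants, higher in BALB/cCrl, was below that level on all arrays and is given no fold. Factors of mitochondrial biogenesis passed on 2 of 33 between mutants and on 2 between wild types. Each count was 6.06%, against 10.8% and 6.74% of all probe sets.

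For genotype the same lists were as quiet as the Nduf genes. No probe set of complexes II to V or of the other lists passed in BALB/cCrl, where 0.02% of all probe sets did. In FVB/N the single call was Atp5j2 of complex V, 0.18 higher in mutants. That was 2.86% of the complex V probe sets, against 0.595% of all probe sets. The FVB/N medians were 0.04 for complexes II and III, 0.02 for complex IV and 0.05 for complex V, against 0.04 for Nduf. Biogenesis factors had a median of -0.03 there, and the complex I factors outside the Nduf family had -0.025, with 12 of 20 below 0.

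Probe sets annotated to an Nduf gene together with another gene were no members, and 10 such probe sets were on the array. For Ndufb4, an accessory subunit, these were the ones with strong signal: 1428076_s_at, shared with Ndufb4b and Ndufb4c, read 10.98, 11.06, 10.99 and 10.98 in BALB/cCrl mutants, against 11.14, 11.24, 11.13 and 11.39 in FVB/N mutants. It was lower by 0.22 (log2) there, with an adjusted p of 0.011 in limma, and 1428075_at, shared in the same way, was at -0.15 with an adjusted p of 0.049. Which of the near-identical copies they read cannot be told apart.

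Promoters of 39 of the 44 genes were found in the RefSeq table, as 41 promoters. The motif of NRF1, searched on both strands as GCGCA followed by any base and GCGC, occurred in 19.5% of them, against 4.6% of all 32851 promoters of the same length. The ETS motif CCGGAAG occurred in 14.6%, against 8.86%, and the YY1 motif AAGATGG in 17.1%, against 6.34%. NRF1 and ETS factors are known activators of nuclear genes for mitochondria. Genes with an NRF1 match were Ndufa5, Ndufa6, Ndufa8, Ndufaf4, Ndufaf5, Ndufb4 and Ndufs5. Of these, Ndufa5, Ndufa8, Ndufaf4 and Ndufaf5 were lower in BALB/cCrl mutants, Ndufs5 was higher, and Ndufa6 did not pass. Over all 44 Nduf genes, 12 passed lower between mutants on some probe set and 5 higher. The only Ndufb4 member was not well above background, and its shared probe sets are given above. Among genes with an ETS match, Ndufaf8, Ndufb6 and Ndufs8 were lower between mutants, Ndufaf1 was higher, and Ndufb7 and Ndufs3 did not pass. Among those with a YY1 match, Ndufaf8 and Ndufb8 were lower, and Ndufs4 passed in both directions. Ndufa3, Ndufa9, Ndufc1 and Ndufs7, also with a YY1 match, did not pass there. Whether a motif goes with the strain difference was not tested. A match is a run of letters in a window and not a measured binding site. The promoter of Ndufa4, the gene past the test for genotype, held none of the 3 motifs and is printed for reference.
Ndufa4 promoter, chr6:11907401-11907700, minus strand: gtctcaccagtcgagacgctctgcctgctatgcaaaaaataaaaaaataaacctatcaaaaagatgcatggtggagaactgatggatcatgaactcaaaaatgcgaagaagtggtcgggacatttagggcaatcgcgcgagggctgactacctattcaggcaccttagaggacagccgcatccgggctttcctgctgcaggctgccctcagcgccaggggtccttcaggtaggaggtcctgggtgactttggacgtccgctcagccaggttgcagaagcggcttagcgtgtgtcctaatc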

How the data were processed

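Total RNA of 16 single embryos was measured on 1 Affymetrix array each. The log2 expression values that the authors deposited in 1 table of all 16 arrays were used as given; the submitters' processing notes name RMA and GCRMA without versions or roles, and which of them made this table is not given in the sources used here. Log2 values of 3 pairs of groups, made with gcRMA per the deposited description of the files, were an alternative. Arrays carry no depth, and 4 arrays per group limit the precision. Probe sets were named through the platform annotation and placed through RefSeq (GRCm38.p6); all 88 members matched.

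The fit used limma 3.58.1 on the 16 arrays at once (R 4.3.3), with 1 mean per group and an empirical Bayes spread that follows intensity. Tests were two-sided, with the Benjamini-Hochberg adjustment taken over 45037 probe sets, with calls at an adjusted p under 0.05. The fit was tested on simulated data. Tables, sequences and figures were handled in Python 3.11.15 with pandas 2.3.3, numpy 2.4.6 and matplotlib 3.10.9.

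Genes were named if any probe set passed in any contrast, if they had the largest rise or fall of their family, if they lie on chromosome 6, or if they were Ndufa4l2 or Cecr2. The members, lists and rules were chosen with earlier results of these data known. Replicates are separate embryos whose litters are not given, so p-values measure the spread between these embryos. The main fit did not pair them by number. Deviations of same-numbered pairs correlated at -0.145 to 0.169, with 4 of 16 above 0.1. Between wild types of the strains they ran from 0.0334 to 0.123, against -0.11 to 0.0973 for differently numbered pairs. In BALB/cCrl mutants against wild types they ran from -0.145 to 0.0441, against -0.227 to 0.386. These values cannot settle whether the numbers mark something shared, which the labels do not give.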

Additional observations from a re-analysis of the deposited data

Results flagged for a closer look

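In 13 of 232 groups of 4 embryos examined (5.6%), the highest or lowest embryo lay far from the other three by Dixon's gap test; chance alone marks about 1 in 20 groups. FVB/N mutant 4 was the embryo that stood apart in 5 of them, each time above the other three: Ndufv1 on 1415967_at at 11.44 (others 11.29 to 11.30), Ndufs8 on 1423908_at at 10.40 (10.21 to 10.24), Ndufs4 on 1448959_at at 11.19 (10.95 to 10.97), Ndufa3 on 1452790_x_at at 12.61 (12.37 to 12.38) and Ndufa7 on 1455749_x_at at 9.53 (9.27 to 9.30). FVB/N wild type 1 stood above the other three in 4: Ndufb2 on 1416834_x_at at 11.02 (10.83 to 10.86), Ndufa7 on 1428360_x_at at 12.33 (12.23 to 12.24), Ndufs8 on 1434213_x_at at 10.18 (10.00 to 10.03) and Ndufc2 on 1460506_s_at at 12.44 (12.27 to 12.29). These are the embryos with the highest Nduf medians of their groups.

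The other flags fell on single embryos. BALB/cCrl wild type 2 read 10.98 for Ndufv1 on 1456015_x_at (others 10.80 to 10.83). On 2 probe sets not well above background, BALB/cCrl mutant 1 read 5.47 for Ndufc2 on 1431670_at (5.24 to 5.27) and FVB/N mutant 1 read 6.77 for Ndufb8 on 1458404_at (6.57 to 6.59). For the trapped gene, FVB/N wild type 2 read 8.51 for Cecr2 on 1457039_at (8.14 to 8.19).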

How the results depend on the processing

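No named difference or count changed its direction under any alternative tried. The call of Ndufa4 between FVB/N mutants and wild types, and with it the count of 1, went to 0 with no intensity trend (adjusted p 0.064), with the authors' gcRMA values (adjusted p 0.37; 0.0288% of all probe sets passed there) and without FVB/N mutants 3 and 4 together (adjusted p 0.072, an alternative added after seeing the data); leaving out 1 array at a time gave 0 to 1. With 1 probe set a gene, 12 of 44 genes (27.3%) passed between mutants of the strains, against 12.1% of all 18193. Between wild types 6 of 44 (13.6%) passed, against 7.25%, fewer probe sets being counted. Leaving out 1 array at a time gave 17 to 30 calls between mutants and 10 to 14 between wild types. Between mutants the lowest was 19.3% without BALB/cCrl mutant 1, against 7.88% of all probe sets. The highest was 34.1% without FVB/N mutant 3, against 10.7%. Between wild types the lowest was 11.4% without BALB/cCrl wild type 2, against 5.73%. The highest included 15.9% without FVB/N mutant 1, against 6.92%. Between mutants, 33 members (37.5%) passed with arrays centred on their median, where 11.1% of all probe sets passed, and 34 of 77 (44.2%) with only probe sets above the Y-linked level tested, where 23.1% passed. Of the 23 mutant calls 15 held in every alternative, and of the 13 wild type calls 8 did. With the replicate number as a block, genotype gave 0 calls in BALB/cCrl and 1 in FVB/N, where 0.02% and 0.655% of all probe sets passed. The strains gave 13 calls between wild types and 24 between mutants, where 6.45% and 10.7% passed. Interaction and mean effect gave 0 each, where 0.198% and 0.393% passed. Among the Nduf counts the block thus moved only that between mutants, from 23 to 24. Over all probe sets the block moved the interaction from 0.0755% to 0.198%. Between mutants it ended the calls of Ndufb6 (adjusted p 0.058 in limma) and Ndufc2 on 1455036_s_at (adjusted p 0.077 in limma). Medians of the members moved by less than the spread between replicates under every alternative; that of the mean genotype effect, 0.015, changed sign in 2 settings (range -0.005 to 0.028). The pair of mutant groups was not run with gcRMA values, and the interaction and mean effect need all 4 groups and were not run on the arrays of a pair or with gcRMA values. Signal over background limits 11 members, whose means were at or below the Y-linked level.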
